A study of Homo sapiens with 4 samples.

Results

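DU145 cells, a widely used prostate cancer cell line of human origin whose growth does not need androgen, were given C-30 at 2 µM or No.10-3 at 5 µM for 48 h, and the difference between these 2 arrays is described here gene by gene. Both compounds are described in the labels as inhibitors of PSF, the nuclear RNA-binding protein encoded by SFPQ, and the question the pair addresses is how the expression seen with one inhibitor differs from that seen with the other. The other 2 arrays of the study hold vehicle and C-30 at 0.5 µM, and all 4 cultures were kept in serum-containing RPMI medium. Each condition has 1 array without a replicate, and differences are therefore given without error, SD or p-value. The doses of the compounds also differ, so compound, dose and the individual culture or array cannot be told apart.

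Expression is given as log2 signal, and the difference is that of C-30 at 2 µM minus No.10-3 at 5 µM, so a positive value means a higher signal with C-30. The background level of an array is the 95th percentile of its negative control probe sets, 7.06 for No.10-3 and 7.15 for C-30 at 2 µM. A gene was taken when its higher signal of the pair lay above the background level of that array. Of 17687 named genes, 6237 met this rule, or 35.3%. Of these, 5413 lay above background on both arrays, 580 only with No.10-3 and 244 only with C-30. The remaining 11450 genes did not meet the rule and are not described. Just inside the limit lay ZNF57, with a higher signal of 7.07 and a difference of -0.36, and just outside it TAF11, with a higher signal of 7.15 and a difference of 0.47. A gene that is above background on 1 array only is given with a bound, in which its dim signal is replaced by the background level of that array.

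With C-30 at 2 µM, the genes that encode the histones of newly replicated chromatin were lower than with No.10-3, and these were the lowest genes of the comparison. Of the 12 highest genes 5 encode enzymes of sterol synthesis and 2 regulators of the integrated stress response. Replication-dependent histone genes are transcribed in S phase, when DNA is copied, and their mRNAs end in a stem-loop in place of a poly(A) tail. Sterol synthesis turns acetyl-CoA through mevalonate into cholesterol, and its enzymes are switched on together by the transcription factor SREBP-2 when sterol in the endoplasmic reticulum is low. The integrated stress response is set off by kinases of the initiation factor eIF2, which slow translation in general while raising the translation of ATF4 and the transcription of its targets.

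A difference of at least 2-fold, a log2 difference of at least 1, was seen for 520 of the 6237 genes (8.34%). Of these, 119 were higher with C-30 (1.91%) and 401 lower (6.43%). By any size, 36.6% of the genes were higher and 63.4% lower, and the median difference was -0.18. Among the 5413 genes above background on both arrays, 69 were at least 2-fold higher (1.27%) and 252 lower (4.66%), 5.93% in either direction, and by any size 37.7% were higher and 62.3% lower. The share of calls that were higher, 22.9%, changed with the scaling of the arrays. It was 48.7% after quantile normalization of the named genes, 57.1% after a lowess correction, 45.9% after centring on the genes taken, and 1.41% when both arrays were scaled to hybridization spikes. A median is therefore best read against -0.18, and small list medians are given with the scalings that turn their sign. With dim signals set to background, 82 of the 119 and 284 of the 401 remained past 2-fold. A measured difference of 4-fold was reached by 5 genes in the higher direction and by 36 in the lower, of which 33 were replication-dependent histone genes. With dim signals set to background these counts were 3 (ATF3, HMGCS1 and IDI1) and 27, of which 26 were histone genes.

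**Figure D1:**
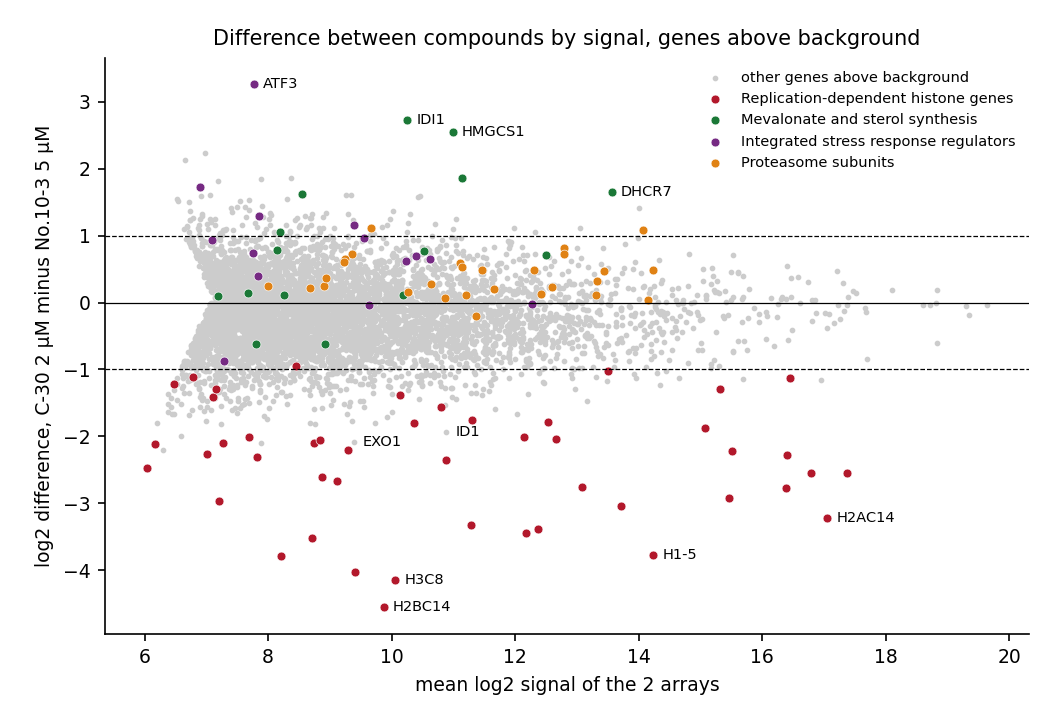
Difference per gene (log2, C-30 at 2 µM minus No.10-3 at 5 µM) against the mean log2 signal of the 2 arrays, for the 6237 genes above background, with dashed lines at 2-fold and 4 gene lists in colour. The histone genes lie at the lower edge at every level of signal, down to -4.56, while ATF3, IDI1 and HMGCS1 lie at the upper edge.

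The size of these counts can be set beside the control probe sets. Of 2031 positive control probe sets that met the same rule, 7.68% differed by at least 2-fold, close to the 8.34% of genes, so the number of calls by itself is no result. Among all 612 negative control probe sets 30.4% did, and among the 48 of them that met the rule 68.8%. Among all 63 ERCC probe sets 0 did, with a robust SD of 0.199. Only 1 of the 63 met the rule, so this SD is mostly that of signals below background. The 4 hybridization spikes were 0.45 to 0.52 higher on the C-30 array, while the labelling spikes lay between -0.54 and 0.16. The part of this shift in the counts is shown by the spike scaling above. Pearson's r across named genes between the arrays was 0.982. Of the luminal prostate markers, KRT8 and KRT18 lay above background, and KLK3, KLK2, ACP3 and HOXB13 lay below it on both arrays. Of 8 leukocyte markers measured CD68 lay above background, and 0 of 8 of fibroblasts and smooth muscle, 6 of endothelium, 2 of basal and 6 of neuroendocrine cells did.

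Of 69 listed replication-dependent histone genes 61 were measured and 47 lay above background, 34 of them on both arrays and 13 with No.10-3 only. With C-30, 46 of the 47 were at least 2-fold lower, against 6.43% of all genes, 40 of them also with dim signals set to background, and 0 were higher. The 34 genes above background on both arrays had a median difference of -2.31, and 33 of them were at least 2-fold lower. H2AC6, at -0.95, was the exception. Many of these genes are near-identical in sequence, so signal may be shared between copies and the value of a single gene is uncertain. In bulk RNA, fewer cells in S phase and less histone RNA per cell cannot be told apart.

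The largest difference was that of H2BC14, which encodes a histone H2B. Its log2 signal was 13.23 in vehicle, 12.15 under No.10-3, 11.16 at the low dose of C-30 (0.5 µM) and 7.59 at the high dose (2 µM), a difference of -4.56 (23.6-fold). The higher dose of C-30 thus stood far below the other 3 arrays, and the lower dose lay between it and No.10-3. H3C8, a histone H3 gene, had signals of 12.55, 12.13, 10.78 and 7.98 on the same arrays in the same order, a difference of -4.15 (17.8-fold). H1-5, which encodes a linker histone that binds DNA between nucleosomes, had 16.33, 16.12, 15.12 and 12.35, a difference of -3.77 (13.6-fold). In each of these genes vehicle was the highest array and C-30 at 2 µM the lowest by a wide gap. H2BC10 had 10.17, 10.10, 8.65 and 6.31, the last below background, so it was at least 7.74-fold lower.

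The order of arrays was the same over the group: in all 47 histone genes the C-30 2 µM array was the lowest of the 4, and the C-30 0.5 µM array lay between it and No.10-3. All core histones and the linker histones took part. The 15 H2B genes had a median difference of -2.55, the 12 H2A genes -2.07, the 6 H3 genes -2.58, the 10 H4 genes -2.09 and the 4 H1 genes -2.45. With dim signals set to background, the medians of H3 and H4 were -1.996 and -1.92, and those of the other families did not move. At the small end stood H4C11 at -1.02, with signals of 14.06, 14.01, 13.79 and 12.99 on vehicle, No.10-3 and the low and high dose of C-30. Among genes of very high signal, H2AC14 (18.74, 18.67, 17.44 and 15.44) differed by -3.23 and H2AC20 (17.13, 17.01, 16.57 and 15.88) by -1.12, so the size of the difference varied within a family.

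**Figure D2:**
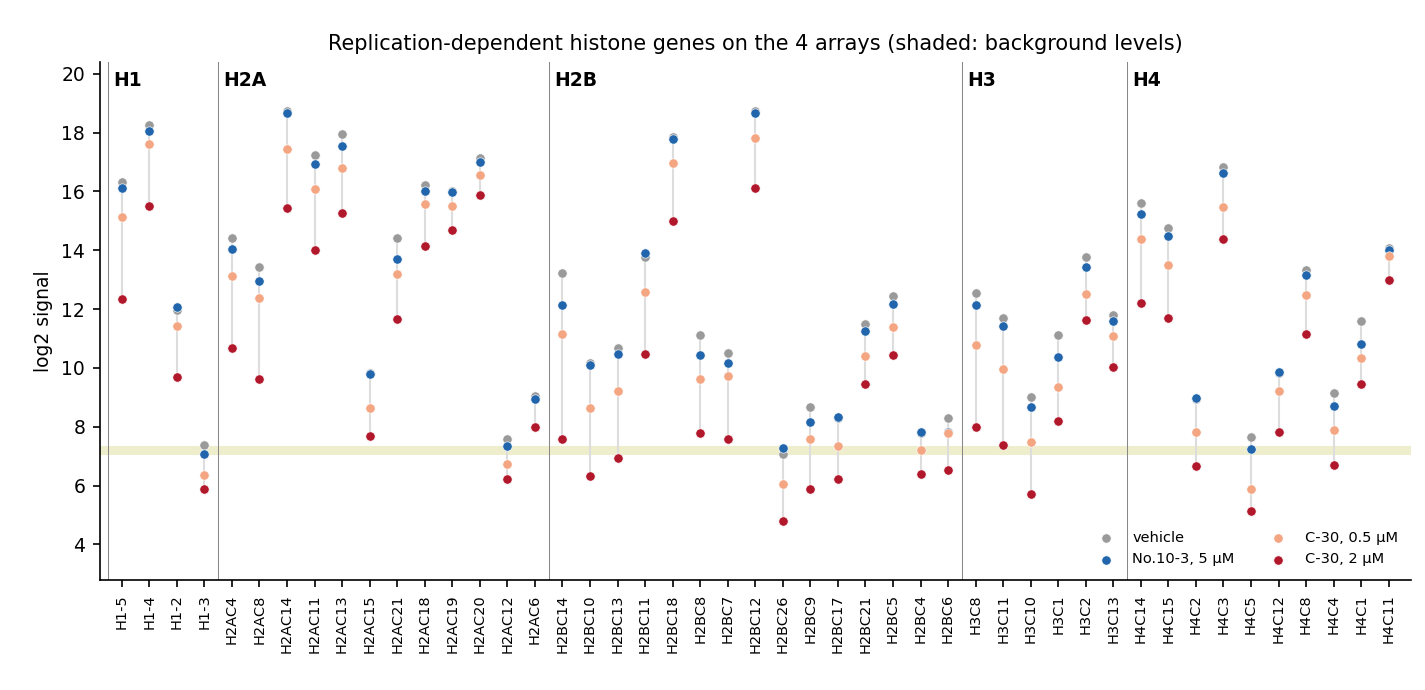
Log2 signal of the 47 replication-dependent histone genes above background, grouped by family, on the arrays of vehicle, No.10-3 and the low and high dose of C-30 (1 array each; the shaded band spans the background levels of the 4 arrays). In every gene the point of C-30 at 2 µM is the lowest, and that of C-30 at 0.5 µM lies between it and No.10-3.

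The histone genes lie mostly in clusters, 37 of the 47 on chromosome 6 between 26020451 and 27893891 and 10 on chromosome 1 between 149782689 and 228458558 (GRCh38.p14 coordinates of RefSeq). Of these 10, H2BC26 lies alone at the far end, and the promoters of the others lie between 149812371 and 149888215. Within the chromosome 6 stretch, 5 other genes lay above background, and 0 of them differed by 2-fold, against 8.34% of all genes. Their median difference was 0.11, from BTN2A1 at -0.65 to BTN3A3 at 0.20. With so few genes, the count of 0 is no result by itself.

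Promoters of 43 of the 47 histone genes were found in the RefSeq table, and the 250 bases before each start were searched on both strands. The octamer ATTTGCAT, the element bound by POU-domain factors such as OCT1 and long known from H2B promoters, was in 12 of 15 H2B and 7 of 11 H2A promoters, and in 0 of those of H1, H3 and H4. It was in 1.66% of all 27305 promoters and in 44.2% of those of the histone genes. H2A and H2B genes often stand head to head, and 5 of these sites fell in the windows of both an H2A and an H2B gene. In 8 H2B genes the octamer lay within 50 bases of the start, between bases 49 and 38 before it, and these genes differed by -4.56 to -1.81. In the 4 where it lay further away the differences ran from -2.60 to -1.30. The 3 H2B genes without it had a median of -2.47, against -2.58 with it, and ran from -3.52 (H2BC13) to -1.75. The 120 bases before the start are shown for 3 H2B genes with a near octamer and for H2BC6, where it lies further away, with the octamer in capitals:
H2BC14 (chr6:27814902-27815021, plus strand, -4.56): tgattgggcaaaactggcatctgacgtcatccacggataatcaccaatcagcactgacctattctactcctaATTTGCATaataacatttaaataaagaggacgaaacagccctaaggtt
H2BC10 (chr6:26272811-26272930, plus strand, -3.79): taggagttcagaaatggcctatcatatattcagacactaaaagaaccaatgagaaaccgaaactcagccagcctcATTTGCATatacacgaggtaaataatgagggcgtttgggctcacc
H2BC11 (chr6:27132796-27132915, minus strand, -3.45): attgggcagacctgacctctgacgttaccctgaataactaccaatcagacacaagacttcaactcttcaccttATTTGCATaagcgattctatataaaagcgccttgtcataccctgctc
H2BC6 (chr6:26183641-26183760, plus strand, -1.30): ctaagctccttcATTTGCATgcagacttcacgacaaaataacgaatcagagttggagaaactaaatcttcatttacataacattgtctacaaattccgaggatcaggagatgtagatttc
In the first 3 the octamer begins 48, 45 and 47 bases before the start, and in H2BC6 it begins 108 bases before it. These 3 are the lowest of the genes with a near octamer, and H2BC6 is the least low of those with a further one. They therefore do not show how its position goes with the difference, which was not tested. A match of these letters describes the window and does not show that a factor binds there. The E2F site TTTNGCGC was in 8 of the 43 histone promoters (18.6%) and in 5 of 34 promoters of replication genes (14.7%). It was in 1.54% of all promoters and in 2.72% of those of the genes taken. The 8 were 5 H2B and 3 H2A promoters, with 0 of H1, H3 and H4. The 3 H2A matches lie in stretches shared with the window of a head-to-head H2B gene, so these sites are counted in both.

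Histone genes that are expressed outside S phase were nearer to the rest. Of 8 replacement histone genes above background 0 differed by 2-fold, against 8.34% of all genes. Their median was -0.33, from H2AX, the variant phosphorylated at DNA breaks, at -0.96 to H2AZ1 at 0.33. Of the genes that transcribe histone genes or process the ends of their mRNAs, 8 of 14 measured lay above background and 0 differed by 2-fold. With 8 genes in each group, these counts of 0 are near the share of all genes and are no result by themselves. SLBP, which binds the stem-loop of histone mRNA, had signals of 9.39, 9.62, 9.69 and 9.67 on vehicle, No.10-3 and the low and high dose of C-30, a difference of 0.05. SYMPK, the scaffold of the cleavage complex, differed by -0.93.

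Genes of DNA replication leaned the same way with smaller differences. Of 39 replication licensing and fork genes above background, 34 were lower by any size, against 63.4% of all genes, and 4 at least 2-fold lower, against 6.43%, with a median of -0.38. MCM5, a subunit of the helicase that opens DNA at the fork, had signals of 11.15 in vehicle, 10.92 under No.10-3, 10.10 at the low dose of C-30 and 9.61 at the high dose, a difference of -1.31. UHRF1, which brings the maintenance DNA methyltransferase to new DNA, had 11.13, 10.90, 10.63 and 9.67, a difference of -1.23. Both were lowest on the high dose of C-30, next lowest on its low dose, and near vehicle with No.10-3. WDHD1, a fork protein that links helicase and polymerase, differed by -1.10, and MCM6 by -1.06, although its signal with No.10-3 (8.37) was the one that stood apart, the other arrays lying between 7.31 and 7.47. WDHD1 and MCM6 came under 2-fold with quantile, lowess and centred scaling. PCNA, the sliding clamp, differed by -0.11.

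Most genes of nucleotide synthesis and of entry into S phase lay on the lower side by any size, with few calls. Of 26 nucleotide synthesis genes above background 21 were lower, 80.8% against 63.4% of all genes, with a median of -0.52. At least 2-fold lower were 2 of them, 7.69%, which is near the 6.43% of all genes. IMPDH2, which commits purines to guanine nucleotides, differed by -1.27, DHODH, the mitochondrial step of pyrimidine synthesis, by -1.13 (under 2-fold with quantile, lowess and centred scaling), and TK1, thymidine kinase, by -0.92. Of 16 cyclin and E2F genes of the G1/S step 13 were lower, 81.3%, with a median of -0.55, and 1 at least 2-fold lower, 6.25%. SKP2, which marks the inhibitor p27 for destruction, had 10.66, 11.11, 10.51 and 9.87 on vehicle, No.10-3 and the low and high dose of C-30, a difference of -1.24. CCNA2, cyclin A2, went the other way at 0.57. EXO1, an exonuclease of mismatch repair and of resection at DNA breaks, was the lowest gene that is no histone gene among those above background on both arrays, with 9.86, 10.43, 9.72 and 8.34 and a difference of -2.09 (4.24-fold).

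Inhibitors of cyclin-dependent kinases were higher with C-30. Of 6 measured, 3 lay above background, all of them higher, against 36.6% of all genes, and 2 by at least 2-fold, against 1.91%. CDKN1A, which encodes p21, had 8.54 in vehicle, 8.06 under No.10-3, 8.75 at the low dose of C-30 and 9.17 at the high dose, a difference of 1.11. CDKN1B, which encodes p27, had 7.87, 7.93, 8.53 and 9.09, a difference of 1.15. CDKN2A differed by 0.27. In CDKN1B vehicle and No.10-3 lay together and both doses of C-30 above them, whereas in CDKN1A No.10-3 was also below vehicle.

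Genes of mitosis were lower with C-30 than with No.10-3, and for several of them the array of No.10-3 was the one that stood apart. Of 23 spindle, cytokinesis and kinesin genes above background 20 were lower, against 63.4% of all genes, and 6 at least 2-fold lower, against 6.43%, with a median of -0.60. MKI67, the proliferation antigen that coats mitotic chromosomes, had 13.28 in vehicle, 13.90 under No.10-3, 12.87 at the low dose of C-30 and 12.43 at the high dose, a difference of -1.47. TOP2A, the topoisomerase that untangles sister chromatids, had 11.33, 12.89, 11.40 and 11.53, a difference of -1.36, and here the array of No.10-3 stood apart while the other 3 lay together. DLGAP5 at -1.28, ANLN at -1.06 and KIF4A at -1.06 were also highest with No.10-3, and the last 2 came under 2-fold with quantile, lowess and centred scaling. KIF11, the motor that pushes spindle poles apart, had 7.55, 8.96, 8.97 and 7.77, so its low dose of C-30 was level with No.10-3.

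Of 20 mitotic cyclins, kinases and phosphatases above background 17 were lower, against 63.4% of all genes, with a median of -0.49. At least 2-fold lower were 2 of them, against 6.43%, and both came under 2-fold with quantile, lowess and centred scaling. BUB1, a kinase of the spindle checkpoint, differed by -1.06, and the phosphatase gene CDC25C by -1.07, at least 1.77-fold with its bound, as it was below background with C-30. CCNB1, cyclin B1, had 9.69, 10.51, 9.42 and 10.75 on vehicle, No.10-3 and the low and high dose of C-30, a difference of 0.24, and CDK1, its partner kinase, differed by 0.32. Both were thus above vehicle on the arrays of No.10-3 and of the higher dose of C-30. The 25 kinetochore and centromere genes had a median of -0.10, which turned positive under quantile, lowess and centred scaling. Of these, 9 were higher by any size and 16 lower, 64%, near the 63.4% of all genes. In the lower direction 3 differed by 2-fold or more, 12% against 6.43% of all genes: INCENP at -1.44, CENPF at -1.38 and SPDL1 at -1.47. SPDL1 was below background with C-30, and with its bound it was at least 1.52-fold lower, so 2 of the 3 reach 2-fold. These are 2 of the 23 list genes above background on both arrays, and 4.66% of all such genes were called lower. CENPF, which builds the outer kinetochore late in the cycle, had 5.92, 9.37, 8.31 and 7.98, so all treated arrays lay above vehicle, which was below background. The 19 cohesin and condensin genes included 0 that differed by 2-fold, against 8.34% of all genes, with a median of -0.25.

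**Figure D3:**
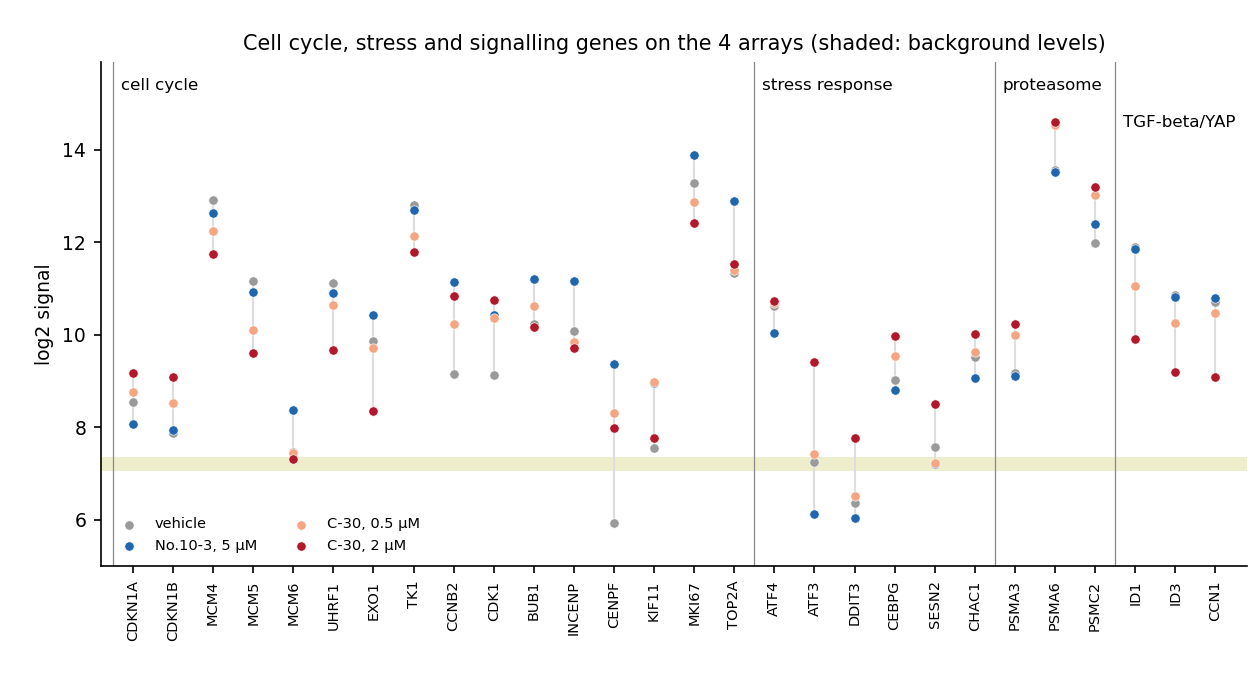
Log2 signal of genes of the cell cycle, the stress response, the proteasome and TGF-beta or YAP signalling on the 4 arrays (1 array per condition; the shaded band spans the background levels). TOP2A and INCENP stand out with No.10-3, whereas MCM5, UHRF1, ID1 and ID3 are lowest and ATF3 and CDKN1B highest with C-30 at 2 µM.

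Sterol synthesis was the list with the most genes at least 2-fold higher with C-30. Of 17 measured genes 15 lay above background, each of them on both arrays. Of these, 13 were higher with C-30, against 36.6% of all genes, and 6 at least 2-fold higher, against 1.91%, with a median of 0.77. HMGCS1, which makes HMG-CoA at the head of the pathway, had 10.92 in vehicle, 9.71 under No.10-3, 11.49 at the low dose of C-30 and 12.26 at the high dose, a difference of 2.55 (5.84-fold). IDI1, the isomerase that makes the reactive isoprene unit, had 8.997, 8.88, 10.10 and 11.61, a difference of 2.73 (6.64-fold). The pair illustrates that the contrast had both sides: No.10-3 lay below vehicle for HMGCS1 and near it for IDI1, while C-30 at 2 µM was above vehicle for both.

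Later steps differed in this balance. MSMO1, which acts in the removal of methyl groups from the sterol ring, had 11.35, 10.22, 11.62 and 12.07 on vehicle, No.10-3 and the low and high dose of C-30, a difference of 1.86. SQLE, which oxidises squalene and limits the flow into sterols, had 8.50, 7.74, 8.83 and 9.37, a difference of 1.63. DHCR7, the last step to cholesterol, had 14.46, 12.73, 13.66 and 14.39, a difference of 1.65, and there C-30 at 2 µM was level with vehicle and No.10-3 was the low array. ACAT2, which joins acetyl-CoA units before HMGCS1, differed by 1.06, and NSDHL, CYP51A1 and FDPS by 0.79, 0.77 and 0.72. MVK, PMVK, HSD17B7 and EBP lay between 0.10 and 0.15. LSS, which closes the sterol ring, and TM7SF2, a sterol reductase, were the 2 lower genes, each at -0.62.

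Regulators of the pathway were mixed. Of 9 SREBP and cholesterol transport genes above background 4 were higher, against 36.6% of all genes, and their median of -0.12 turned positive under lowess and centred scaling. INSIG1, the sterol-sensitive anchor of SREBP and itself one of its targets, had 7.59, 7.01, 8.05 and 8.39 on the 4 arrays in the same order. It was at least 2.50-fold higher with C-30, as it was below background with No.10-3. SREBF2, which encodes SREBP-2, had 9.51, 7.75, 8.60 and 8.54, a difference of 0.79, with all treated arrays below vehicle. SCAP, the escort that brings SREBP to the Golgi, differed by -0.74, and NPC1, which exports cholesterol from lysosomes, by 0.82. Among 13 fatty acid genes above background the median was 0.10. SCD, the desaturase that makes oleate, had 14.60, 13.29, 14.30 and 14.71, a difference of 1.42, and again the array of No.10-3 was the one below the other 3. ELOVL2, an elongase of polyunsaturated chains, differed by -1.12 and FASN, the fatty acid synthase, by 0.03. The letters TCACNCCAC, a form of the sterol regulatory element, were in 0 of 13 sterol synthesis promoters in the table and in 0.875% of all promoters. This says only that these letters are not in those windows.

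**Figure D4:**
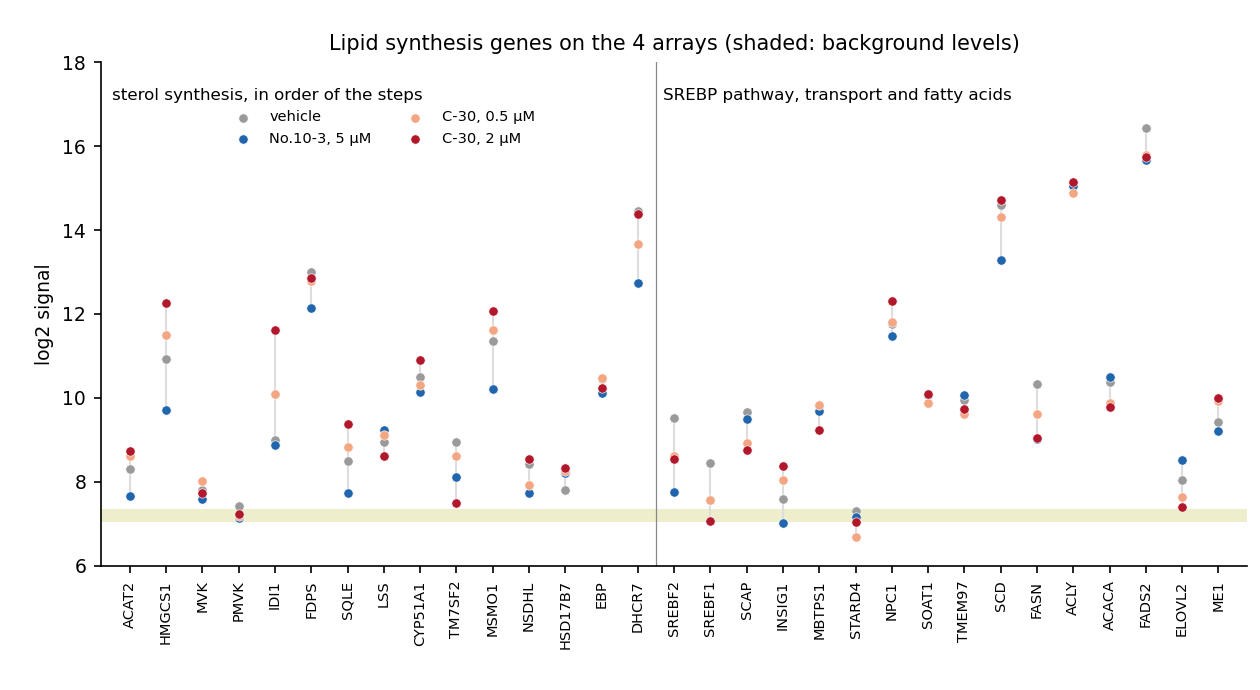
Log2 signal of sterol synthesis genes in the order of their steps, and of SREBP pathway, transport and fatty acid genes, on the 4 arrays (1 array per condition; the shaded band spans the background levels). HMGCS1, IDI1 and MSMO1 are highest with C-30 at 2 µM, and DHCR7 and SCD are lowest with No.10-3.

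Genes of the integrated stress response were higher with C-30. Of 18 measured genes 14 lay above background, 11 of them higher, against 36.6% of all genes, and 4 at least 2-fold higher, against 1.91%, with a median of 0.71. With dim signals set to background, 3 of the 4 reach 2-fold, all but DDIT3. Of the 14, 3 passed through C-30 only and 1 through No.10-3 only. Among the 10 above background on both arrays the median was 0.67, and 2 were at least 2-fold higher. ATF3, a stress-induced transcription factor, had 7.24 in vehicle, 6.13 under No.10-3, 7.41 at the low dose of C-30 and 9.40 at the high dose. It was the highest gene of the comparison, at least 5.05-fold higher with C-30. DDIT3, which encodes the pro-death factor CHOP, had 6.36, 6.03, 6.51 and 7.76 and was at least 1.62-fold higher. For DDIT3 only the higher dose of C-30 lay above the background level of its array, and for ATF3 both doses did.

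The other members had smaller differences. CEBPG, a dimer partner of ATF4, had 9.03, 8.81, 9.55 and 9.96 on vehicle, No.10-3 and the low and high dose of C-30, a difference of 1.16. SESN2, a sensor of leucine that restrains mTORC1, had 7.58, 7.20, 7.23 and 8.50, which makes it 2.46-fold higher. CHAC1, which breaks down glutathione, differed by 0.96, CEBPB by 0.74 and ATF4 by 0.69. ATF4 was the case of a low array with No.10-3, at 10.04 against 10.62 to 10.74 on the other 3. EIF2AK4, the eIF2 kinase that senses uncharged tRNA, differed by -0.88 and was below background with C-30. The letters TGATGNAA, the core shared by C/EBP-ATF response elements, were in 3 of 13 of these promoters, those of ATF3, PPP1R15B and CHAC1, and in 3.19% of all promoters. In 16 promoters of the table a match to this motif overlapped one to the octamer.

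The lists downstream of ATF4 and the other stress lists had smaller medians. The 16 amino acid supply genes had a median of 0.13 and the 16 aminoacyl tRNA synthetases 0.07. In either list 0 differed by 2-fold, against 8.34% of all genes. SLC7A11, the cystine importer, differed by 0.62 and NARS1, which charges tRNA with asparagine, by 0.87. Of 19 endoplasmic reticulum genes above background 12 were higher, against 36.6%, with a median of 0.14. DNAJB9, a co-chaperone of BiP, was at least 1.72-fold higher, and HERPUD1, which helps to remove misfolded proteins, differed by 0.99. CREB3L2, of the same list, went the other way at -1.45, at least 1.42-fold lower with its bound. Past 2-fold, 1 gene of the list was higher, DNAJB9, and 1 lower, CREB3L2. With dim signals set to background 0 were past 2-fold. HSPA13, an HSP70-like ATPase of microsomes, had 8.52, 8.47, 9.56 and 10.07 on vehicle, No.10-3 and the low and high dose of C-30, a difference of 1.61, with both doses of C-30 above the other arrays. Cytosolic heat shock genes had a median of -0.18, the same as all genes, which turned positive under quantile normalization, and HSPB1 differed by -1.12. NRF2 targets had a median of -0.24, also turned by quantile normalization, with PGD, of the pentose phosphate pathway, at -1.24.

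Among p53 targets, 10 of 14 above background were higher, against 36.6% of all genes, and 3 at least 2-fold higher, against 1.91%, with a median of 0.21. The 3 were CDKN1A, SESN2 and GADD45A, a growth arrest gene that was at least 2.05-fold higher, and the first 2 are also members of lists above. MDM2, a feedback inhibitor of p53, differed by 0.25 and BAX by -0.61. DU145 is known to carry mutant p53, which is background and not measured here. Of 14 NF-kB cytokine and feedback genes above background 7 were higher, against 36.6%, and 2 at least 2-fold higher, against 1.91%, with a median of 0.04. Of these 2, CXCL8 passed the background rule through C-30 only. Among the 13 genes above background on both arrays the median was -0.09. Of these, 1 was at least 2-fold higher, against 1.27% of all such genes. CXCL8, which encodes the neutrophil attractant interleukin-8, had 6.34, 6.96, 8.26 and 8.80 on vehicle, No.10-3 and the low and high dose of C-30 and was at least 3.34-fold higher. TNFAIP3, the A20 brake on NF-kB, had 10.32, 9.64, 10.86 and 10.96, a difference of 1.32. Both doses of C-30 lay above vehicle and No.10-3 in each of these genes. Of 27 measured interferon response genes only IFI35 lay above background.

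Proteasome genes leaned to the higher side together, by small steps. All 28 measured subunits lay above background on both arrays, and 27 were higher with C-30, against 37.7% of all such genes. Of these, 2 were at least 2-fold higher, against 1.27%, and the median was 0.34. PSMA3, a ring subunit of the core particle, had 9.18, 9.11, 10.00 and 10.23 on vehicle, No.10-3 and the low and high dose of C-30, a difference of 1.12. PSMA6, of the same ring, had 13.57, 13.53, 14.53 and 14.61, a difference of 1.08. In both, vehicle and No.10-3 lay close together, while both doses of C-30 stood above them. PSMC2, an ATPase of the regulatory cap, differed by 0.82. PSMD1, a scaffold of the cap, was the lower one, at -0.20. Of 18 autophagy and lysosome genes 11 were higher, against 36.6%, with a median of 0.26. The 1 past 2-fold, 5.56% against 1.91% of all genes, was GABARAPL1, which coats autophagosomes. It was at least 2.20-fold higher, as it was below background with No.10-3. Of the 17 above background on both arrays 0 were at least 2-fold higher.

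Among targets of TGF-beta, BMP and YAP signalling, 5 were at least 2-fold lower with C-30 and 0 higher. Of 17 above background 13 were lower, 76.5% against 63.4% of all genes, and 5 at least 2-fold lower, against 6.43%, with a median of -0.62. ID1, an inhibitor of basic helix-loop-helix factors and a standard BMP target, had 11.89 in vehicle, 11.85 under No.10-3, 11.05 at the low dose of C-30 and 9.91 at the high dose, a difference of -1.94 (3.83-fold). ID3 had 10.86, 10.82, 10.26 and 9.19, a difference of -1.63, and CCN1, a matricellular protein and YAP target, 10.71, 10.79, 10.47 and 9.07, a difference of -1.71. In these genes No.10-3 and vehicle lay close together, and the arrays of C-30 were lower in the order of dose. TGFB1 differed by -1.24 and THBS1, which activates latent TGF-beta, by -1.07, under 2-fold with quantile, lowess and centred scaling. ID2, TGFBI, LATS2 and SMAD7 were higher by any size, at 0.08 to 0.44. Of 10 epithelial genes above background 6 were lower, near the 63.4% of all genes, and 4 higher. The list's median was -0.43, and -0.022 without the background rule. KRT19, KRT8 and DSP, which encode keratins and a desmosome protein, were the 3 at least 2-fold lower, at -1.38, -1.30 and -1.29. These are 30% of the list, against 6.43% of all genes, and the higher genes reached 0.60. Of 20 measured mesenchymal genes 3 lay above background, all lower. Among them the filament gene VIM was at -1.13, under 2-fold with quantile, lowess and centred scaling. In KRT19, KRT8, DSP and VIM the array of No.10-3 was the highest of the 4.

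In the protein family targeted by the compounds, SFPQ, NONO and PSPC1, 0 genes differed by 2-fold. On the wider PSF and paraspeckle list 0 of 13 did, against 8.34% of all genes, so these counts are no result by themselves. SFPQ had signals of 12.59, 12.61, 12.60 and 12.68 on vehicle, No.10-3 and the low and high dose of C-30, a difference of 0.07, and PSPC1 differed by 0.13. NONO, the usual partner of PSF, had 12.48, 12.17, 11.82 and 11.58, a difference of -0.59. Over the PSF and paraspeckle list, with 13 genes above background, the median was -0.30, with RBM14 at -0.81 and NUDT21 at 0.65 at the ends. Of 34 core spliceosome genes CDC40, which acts at the second step of splicing, was the one at least 2-fold higher, at 1.11, and the list's median of -0.20 turned positive under quantile normalization. The 26 SR protein and hnRNP genes had 0 differing by 2-fold, against 8.34% of all genes. Their median was -0.06, positive under quantile, lowess and centred scaling. Of 15 measured genes of the androgen receptor list 4 lay above background, with a median of -0.43.

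**Figure D5:**
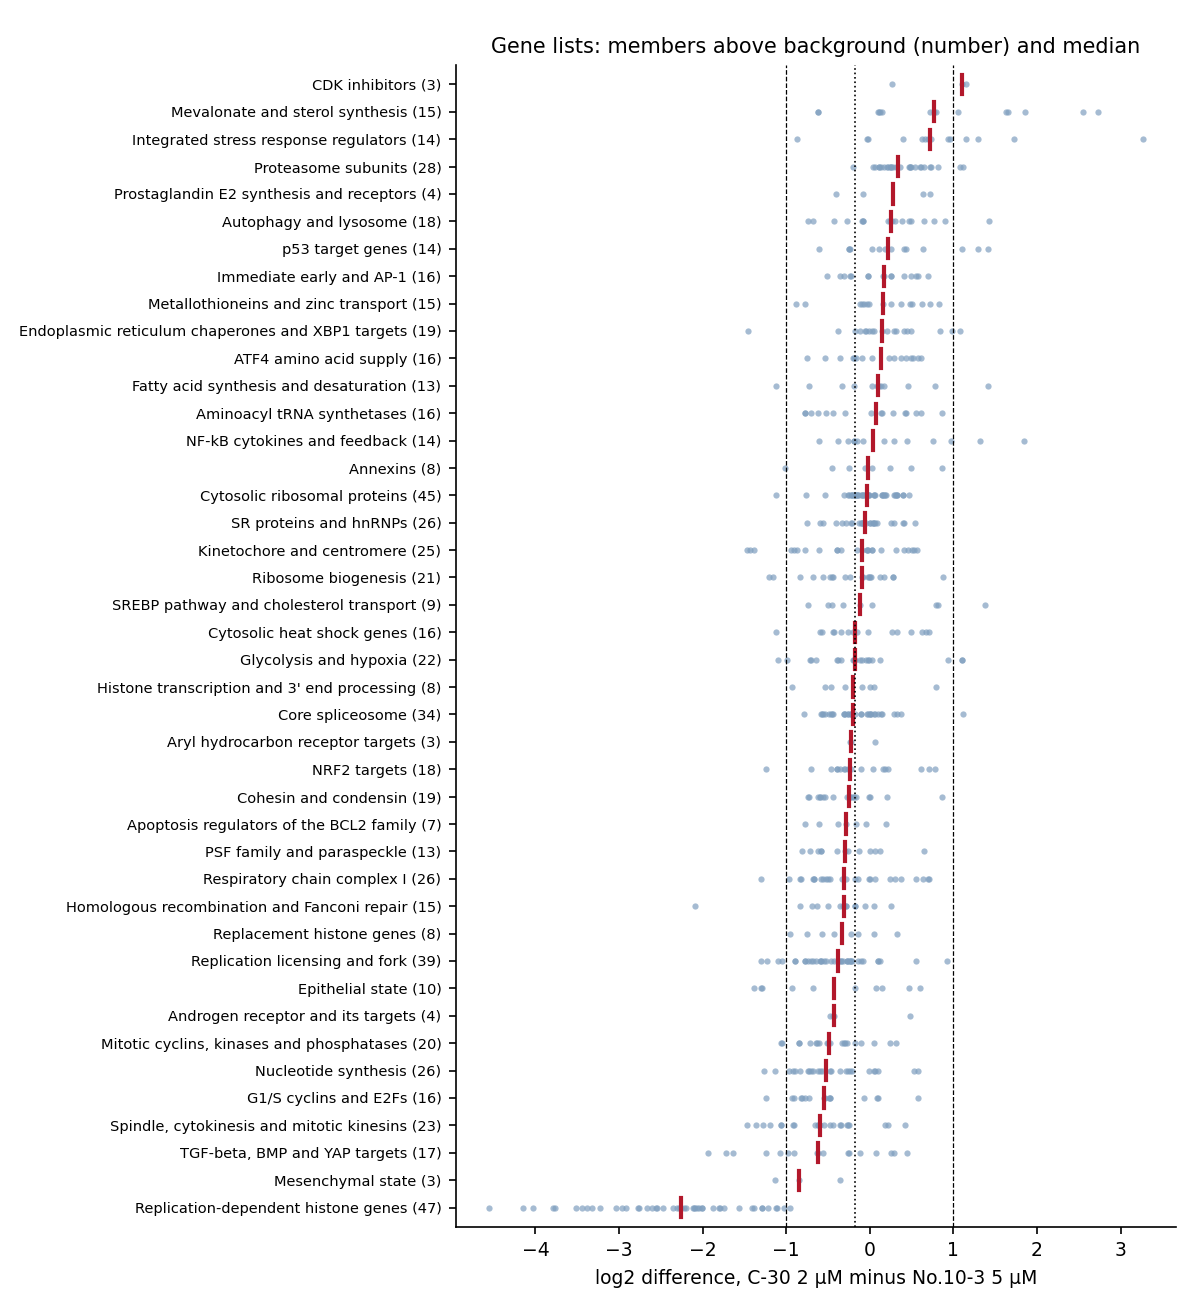
Differences (log2, C-30 at 2 µM minus No.10-3 at 5 µM) of the members above background of 42 gene lists, with each median as a red bar, the number of members in brackets, a dotted line at the median of all genes taken and dashed lines at 2-fold. The replication-dependent histone list has the lowest median, -2.26. The highest are those of the CDK inhibitors (1.11, 3 members), sterol synthesis (0.77) and the stress response (0.71).

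The highest genes outside these lists were of varied function. ACTR6, an actin-related subunit of the complex that deposits H2A.Z, had 7.82, 7.43, 8.99 and 9.30 on vehicle, No.10-3 and the low and high dose of C-30, a difference of 1.87. CITED2, a co-regulator that competes for CBP and p300, differed by 1.61. TUBGCP6, of the gamma-tubulin ring, was at least 2.05-fold higher, as was BLOC1S2, a subunit of a lysosome-positioning complex. SPANXD, a cancer-testis gene with near-identical copies, was at least 1.57-fold higher. The 25 lowest genes were all histone genes, so the lowest others are named after their values were seen. Of these, NFIB, a transcription factor, was at -1.81, ATP2B4, a calcium pump of the plasma membrane, at -1.81, CASK, a membrane scaffold kinase, at -1.81 and SRM, spermidine synthase, at -1.77, each above background on both arrays. SFXN3, a mitochondrial serine carrier, was at least 3.45-fold lower and PLPPR2 at least 1.99-fold. C2CD5 and STXBP4 were at least 1.20-fold and 1.35-fold lower. GSN, the actin-severing gelsolin, was at least 1.67-fold lower. HOXC10, at -1.81, has no bound because its brighter signal, 7.10, lay under the background level of the other array.

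The genes were also compared by the length of DNA they span, which the choice of genes did not use. In 5 groups of near-equal number from the shortest to the longest span, the median differences were -0.16, -0.09, -0.12, -0.20 and -0.31. The share at least 2-fold higher was 1.92%, 3.21%, 2.17%, 1.12% and 1.12%. The share at least 2-fold lower was 9.21%, 4.17%, 4.17%, 6.82% and 7.77%, and in the shortest group it was 6.06% without the histone genes. The genes called higher had a median span of 21.8 kb and those called lower, without the histone genes, 48.6 kb, against 32.2 kb for all genes taken. Calls were also more frequent at low signal: in the 1 of 5 such groups with the lowest mean signal 10.3% were at least 2-fold lower and 3.53% higher, against 5.21% to 5.93% and 0.881% to 1.84% in the others. Genes that passed the rule on 1 array only have a dim signal in their mean. Such genes hold 149 of the 401 lower and 50 of the 119 higher calls. The part of signal, or of the rule, in the counts was not tested.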

How the data were processed

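RNA of 4 DU145 cultures was measured, with 1 array per condition, and the C-30 2 µM and No.10-3 arrays were compared. The deposited values are log2 signals. Per the submitters' processing notes, the authors made them by RMA in Affymetrix Expression Console 1.3.0. The log base is inferred from the range. The highest signals lie above the usual range of scanner readings, so 2-fold holds on the scale of these values only. The build and annotation behind them were not given in the sources used.

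The arrays hold 24351 probe sets, 17709 with 1 gene symbol, 0 with several and 6642 with none (2903 of these controls). Symbols were updated by Entrez identifier in a RefSeq table (GRCh38.p14), where all 17709 matched, giving 17687 genes. For 20 genes with several probe sets the mean was taken. The 2 deposited tables of values differed by at most 5e-05.

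The difference was computed per gene, with thresholds of 2-fold and the 95th percentile of negative controls. The genes and lists described were chosen with earlier results of these data known. Named genes are the 12 highest and lowest, the 8 highest and lowest above background on both arrays, up to 6 members past 2-fold of each list or else 2, genes needed to describe a group by role, and SFPQ, NONO and PSPC1, leaving out uncharacterised loci and similar symbols. Genes below background on 1 array were given as bounds. With 1 array per condition no test was made, so that precision is limited by how many arrays there are. Alternatives were a threshold of 1.5-fold, other background rules, other scalings, the brightest probe set and the other table. The script that makes differences and counts was tested on simulated data with known differences, which says nothing of how many calls unchanged arrays would give. Scripts ran in Python 3.11.15 with matplotlib 3.10.9, statsmodels 0.14.6, scipy 1.17.1, pandas 2.3.3 and numpy 2.4.6.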

Additional observations from a re-analysis of the deposited data

Results flagged for a closer look

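Probe sets without a gene name were left out of the comparison above. Of 3739 that are not controls, 938 lay above background by the same rule, and 32 of these were at least 2-fold higher and 49 lower with C-30 at 2 µM than with No.10-3, with a median difference of -0.14. They were picked out because 12 of them were at least 2-fold higher with C-30 at 2 µM than with No.10-3 and also than with vehicle. These probe sets are unnamed here, and what they measure was not tested.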

How the results depend on the processing

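No paired analysis was possible because each condition has 1 array. The counts of genes at least 2-fold higher and lower, 119 and 401, were the same with the brightest probe set and with the other table. They were 507 and 1420 at 1.5-fold, 69 and 252 with both signals above background, and 52 and 187 with the 99th percentile as background. Without the background rule 387 were higher and 590 lower (39.6% higher). They were 231 and 243 (48.7%) after quantile normalization, 267 and 201 (57.1%) after lowess correction and 213 and 251 (45.9%) after centring, which moved the median of the genes taken by 0.18, 0.18 and 0.15. Scaling to hybridization spikes, chosen after seeing the data, moved it by -0.48 and gave 24 and 1679 (1.41%). Without histone genes, also chosen later, 355 were lower. The yardstick for moves was the robust SD of the ERCC probe sets, of which only 1 of 63 met the background rule. Of 294 medians of 42 lists under alternatives, 261 moved by less than this SD and 33 by more. Without the background rule these were histone genes at -2.04, CDK inhibitors at 0.36, TGF-beta, BMP and YAP targets at -0.41, BCL2 family at -0.040, androgen receptor targets at -0.047, epithelial genes at -0.022, mesenchymal genes at -0.20, prostaglandin genes at -0.030 and aryl hydrocarbon receptor targets at 0.057. With both signals above background they were TGF-beta, BMP and YAP targets at -0.91 and epithelial genes at -0.68. After lowess correction they were histone genes at -2.01, G1/S genes at -0.34, mitotic cyclins and kinases at -0.28, SREBP genes at 0.16, TGF-beta, BMP and YAP targets at -0.40 and ribosome biogenesis at 0.10. After quantile normalization they were mitotic cyclins and kinases at -0.25, fatty acid genes at 0.31, amino acid supply at 0.34, tRNA synthetases at 0.29, endoplasmic reticulum genes at 0.46, heat shock genes at 0.10, NRF2 targets at 0.029, NF-kB genes at 0.25, PSF and paraspeckle genes at -0.085, spliceosome at 0.0087, SR proteins and hnRNPs at 0.16, epithelial genes at -0.23, ribosomal proteins at 0.24, ribosome biogenesis at 0.12, proteasome at 0.55 and aryl hydrocarbon receptor targets at 0.17. Of 605 values of 121 named genes under alternatives 0 changed sign past 2-fold, 45 came under 2-fold, 31 of genes under 2-fold moved by more than the ERCC robust SD (16 under quantile, 15 under lowess scaling) and 529 did neither. ANLN, ANXA6, BUB1, CDC25C, DHODH, ELOVL2, HK1, HSPB1, KIF4A, MCM6, RPS15, THBS1, VIM and WDHD1 did so under each of quantile, lowess and centred scaling, and HOXC10, NDUFS7 and WDR12 under lowess. The cause of these shifts was not tested.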

Other observations

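Some gene groups not described above differed by little. The 45 measured cytosolic ribosomal protein genes all lay above background on both arrays, with a median of -0.04, which turned positive under quantile, lowess and centred scaling, and RPS15 at -1.12 was the one that differed by 2-fold. Of 21 ribosome biogenesis genes 2 differed by 2-fold in the lower direction, POLR1A, the large subunit of RNA polymerase I, at -1.20 and WDR12 at -1.16. WDR12 was below background with C-30, and with its bound it was at least 1.64-fold lower. The median of -0.10 turned positive under the same scalings. Of 26 complex I genes of the respiratory chain 17 were lower, 65.4%, near the 63.4% of all genes, with a median of -0.31.

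Genes of oxygen and metal response were mixed. Of 22 glycolysis and hypoxia genes 17 were lower by any size, 77.3% against 63.4% of all genes, with a median of -0.18, the same as that of all genes. VEGFA, the vascular growth factor, and BNIP3L, a mitophagy receptor, were each higher by 1.11. VEGFA had signals of 13.33 in vehicle, 12.50 under No.10-3, 13.51 at the low dose of C-30 and 13.61 at the high dose, so No.10-3 was the low array. BNIP3L had 10.56, 10.45, 11.46 and 11.55, so both doses of C-30 were the high arrays. HK1, a hexokinase, differed by -1.10. The 15 metallothionein and zinc transport genes had a median of 0.16, from the zinc importer SLC39A14 at -0.89 to MT1B at 0.83, a gene of a near-identical family. Of 4 prostaglandin genes above background PTGES, the prostaglandin E synthase, differed by 0.72. Among 8 annexins the median of -0.02 turned positive under quantile, lowess and centred scaling, and ANXA6 differed by -1.02.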
